A study of Mus musculus with 37 samples.

Results

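Cytosolic ribosomal proteins are the protein subunits of the ribosome that translates nuclear mRNA. Their mRNAs were counted by RNA-seq in 37 mouse livers. The mice were wild type (WT) or NOX4-/- (KO), the latter without the NADPH oxidase Nox4, which makes hydrogen peroxide. Members were all protein-coding genes named Rpl or Rps with a number and an optional a, x or l, together with Rplp0, Rplp1, Rplp2 and Rpsa. The rule found 80 of the 55487 genes in the table, 49 of the large and 31 of the small subunit. All 80 had at least 1 count, 78 passed the filter on low counts, and 77 had counts in every library. Partial hepatectomy removes several lobes and leaves the remnant to regrow. In the WT it was followed for 6 h (n = 3), 24 h (n = 3), 48 h (n = 4) or 7 d (n = 3), and in the KO for 6 h (n = 3), 24 h (n = 4), 48 h (n = 4) or 7 d (n = 3). Each genotype had 5 sham-operated controls, collected at 7 d, 48 h, 24 h, 48 h and 6 h (WT replicates 1 to 5) and at 24 h, 48 h, 48 h, 72 h and 6 h (KO replicates 1 to 5). Both sexes were present in every group except the 6 h hepatectomy groups, which were all male. Strain, age, the deleted exons and the cell types carrying the deletion are not given in the sources used here. The labels do not say that replicates are separate animals, so p-values measure the spread between these samples.

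Ribosomal protein genes are needed in nearly equal amounts, since each protein enters the particle once, apart from the acidic stalk proteins. Their mRNAs begin with a short pyrimidine tract, the terminal oligopyrimidine (TOP) motif, through which mTOR signalling adjusts how strongly they are translated. Liver regeneration is a classic setting for ribosome production, because hepatocytes enlarge before they divide. An mRNA level does not measure translation, and it is the mRNA level that was counted here.

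Start-site windows are shown for 5 of the 6 genes that rose in the KO at 24 h, since TOP motifs lie there, and for 7 others described below. Rpl3, the other gene that rose, is not in the RefSeq table used. Each window runs from 15 bases before to 15 bases after a RefSeq transcript start (GRCm38.p6), 5′ to 3′ on the gene's strand. Capitals mark a C followed by at least 4 further pyrimidines.
Rpl4, chr9:64173372-64173401, plus strand: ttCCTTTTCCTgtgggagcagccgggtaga
Rpl10a, first start, chr17:28328456-28328485, plus strand: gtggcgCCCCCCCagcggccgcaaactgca
Rpl12, chr2:32961697-32961726, plus strand: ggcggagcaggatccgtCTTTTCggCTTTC
Rps6, chr4:86857353-86857382, minus strand: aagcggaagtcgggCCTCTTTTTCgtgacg
Rps24, first start, chr14:24490663-24490692, plus strand: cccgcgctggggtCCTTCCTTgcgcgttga
Rpl9, chr5:65391417-65391446, minus strand: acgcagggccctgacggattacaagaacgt
Rpl24, chr16:55966260-55966289, plus strand: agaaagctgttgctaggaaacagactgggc
Rpl3l, first start, chr17:24727811-24727840, plus strand: gagtgttctagctctgtcatttgaCCTCTg
Rpl10a, second start, chr17:28328550-28328579, plus strand: gctctatttgagcgcatgcgcaaagcgctc
Rps24, second start, chr14:24490738-24490767, plus strand: tccggcgccgtagccatcatggtgagtctc
Rpl3l, second start, chr17:24732670-24732699, plus strand: gtcatcaacagctacagtgccccaaatgtc
Rplp0, chr5:115559452-115559481, plus strand: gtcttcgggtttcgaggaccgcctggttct
Rpl5, chr5:107900513-107900542, plus strand: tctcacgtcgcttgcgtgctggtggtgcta
Rpl11, chr4:136053379-136053408, minus strand: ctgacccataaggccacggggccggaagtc
Rpl41, chr10:128549154-128549183, minus strand: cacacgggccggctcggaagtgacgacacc
In Rps6 and Rps24 the run crosses the annotated start, in Rpl4 and Rpl10a it lies before it, and in Rpl12 it lies after it. The windows of Rpl9, Rpl24, Rplp0, Rpl5, Rpl11 and Rpl41 and the second starts of Rpl10a, Rps24 and Rpl3l hold no such run, which says only that these letters are not within them. RefSeq starts were on hand for 60 of the 80 genes. The run was present in 41 of the 60 (68.3%), against 40.3% of the 27025 genes with such a window. The sequence CTTCC on the gene's strand was found in the windows of 20.0% of the ribosomal protein genes and 7.83% of all genes. Over 250 bases before to 50 after the start, CCGGAAG, which ETS family factors bind, was present on either strand in 41.7% against 9.93% of all genes. The GC-box core GGGCGG was present in 60.0% against 38.2%, the E-box CACGTG bound by Myc in 6 of the 60 against 8.09% of all genes, and AAGATGGC in 8.33% against 3.19%. TATAAA was found in none of the 60 within 50 bases before the start, on the gene's strand, and in 3.15% of all genes. These are matches of letters, and some of the motifs can overlap one another.

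Ribosomal protein transcripts took up between 1.25% and 2.95% of all counts in a library, out of totals of 26232544 to 48827025. In the WT sham livers the share was 1.51%, 1.71%, 2.25%, 2.27% and 1.34% (mean 1.82% ± 0.424, SD, n = 5). After hepatectomy it was 1.28%, 1.61% and 1.25% at 6 h (mean 1.38% ± 0.200, SD, n = 3) and 2.60%, 2.35% and 2.95% at 24 h (mean 2.63% ± 0.301, SD, n = 3). All 3 WT livers at 24 h lay above all 5 sham livers, whereas those at 6 h overlapped the sham range. At 48 h the WT mean was 1.94% ± 0.177 (SD, n = 4) and at 7 d 2.02% ± 0.0553 (SD, n = 3), both within the sham range.

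The KO sham livers spread more widely, at 1.80%, 2.73%, 2.16%, 1.33% and 2.02% (mean 2.01% ± 0.510, SD, n = 5). The KO livers after hepatectomy averaged 1.64% ± 0.242 at 6 h (SD, n = 3), 2.25% ± 0.303 at 24 h (SD, n = 4), 2.39% ± 0.401 at 48 h (SD, n = 4) and 1.93% ± 0.333 at 7 d (SD, n = 3). Only KO 48 h replicate 3, at 2.90%, lay above the highest KO sham liver. A share depends on what else is in the library. TMM factors, which correct for that, were between 0.658 and 0.849 in the 6 h hepatectomy libraries, against 0.735 to 1.199 in the sham libraries. With the 20 most abundant genes taken out of the total, the WT 6 h and WT sham means were 2.30% and 2.70%.

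**Figure D1:**
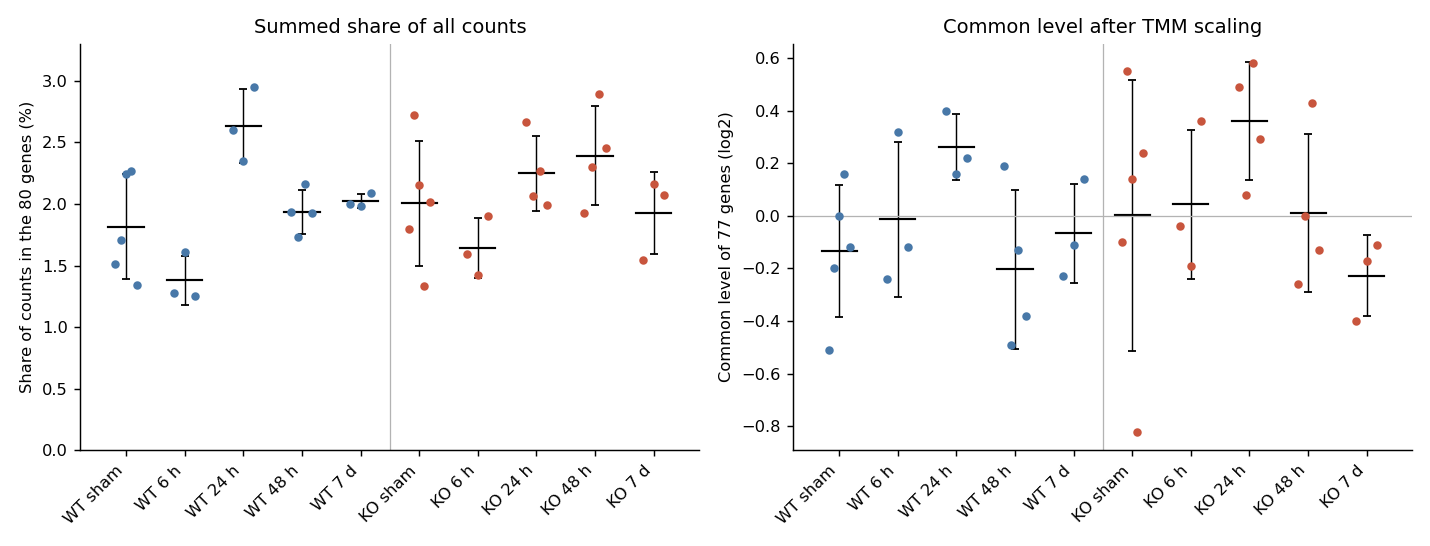
Share of counts in the 80 ribosomal protein genes (left, %) and their common level after TMM scaling (right, log2) in each of 10 groups. Points are libraries, blue for WT and red for KO, and bars are the mean ± SD. The WT 24 h libraries lie at 2.35% to 2.95%, and KO sham replicate 4 lies lowest on the right at -0.82.

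Levels of single genes are given as CPM, the count scaled to a common library size with the library total and TMM factor. The common level of a library was taken as the median, over the 77 genes with counts everywhere, of log2 CPM minus the gene's mean over all libraries. It ran from -0.82 in KO sham replicate 4 to 0.58 in KO 24 h replicate 3. In the WT sham livers it was -0.51, -0.20, 0.00, 0.16 and -0.12, and in the KO sham livers -0.10, 0.55, 0.14, -0.82 and 0.24. After hepatectomy it was 0.40, 0.16 and 0.22 in the WT at 24 h and 0.49, 0.08, 0.58 and 0.29 in the KO at 24 h. Every liver at 24 h was thus above 0, but the KO 24 h range overlapped that of the KO sham livers, and the lowest WT 24 h liver met the highest WT sham liver at 0.16. At 7 d the values were -0.23, -0.11 and 0.14 in the WT and -0.40, -0.17 and -0.11 in the KO. In whole-liver RNA, a change in cell makeup and a change of RNA per cell cannot be told apart.

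Most of the variation among the genes was this common movement. One component held 81.5% of the variance of the 77 genes over the 37 libraries. The median correlation between pairs of the genes was 0.837, against 0.163 between 1091 other genes in the same range of levels, all measured in the same libraries. The ratio of the highest to the lowest library was between 2.19 (Rpl7) and 3.70 (Rpl41). Rpl24, Rpl32 and Rpl11 followed the common level most closely, with an SD of 0.078, 0.080 and 0.082 around it on the log2 scale. Rps27a, Rps27l and Rpl22 departed most, with SDs of 0.286, 0.263 and 0.256. Rps27a is made as a fusion with ubiquitin, Rps27l is a paralog of Rps27 and a p53 target, and Rpl22 is a 60S protein with a paralog of its own. Outside the 80 genes, those whose log2 levels were most like the median of the group over the 37 libraries were Gm2000 (r = 0.941), Mrpl52 (0.925), Bola2 (0.921), Taf10 (0.914) and the pseudogene Gm9385 (0.906).

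Departures from the common level were themselves patterned. The first component of what was left held 29.9% of that variance and set Rps27a, Rpl30, Rpl23 and Rps24 against Rpl8, Rplp0, Rps14 and Rps2. Across genes its loadings had a Spearman correlation of -0.63 with the GC content of the transcript and -0.11 with its length. The second held 21.0% and set Rpl4, Rpl3, Rps6 and Rpl9 against Rpl41, Rps20, Rps28 and Rps29, with a correlation of 0.52 with transcript length and -0.15 with GC content. Genes are not independent replicates, and no p is attached to these values. On the second component the KO 24 h livers scored -0.55, 1.29, 0.55 and 1.07 and the WT 24 h livers -0.69, 0.11 and -0.63. KO 24 h replicate 1 thus stood with the WT 24 h livers. High scores were not confined to the KO at 24 h. At 6 h the livers scored 0.86, 0.28 and 0.86 in the WT and 0.76, 0.85 and 0.10 in the KO.

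**Figure D2:**
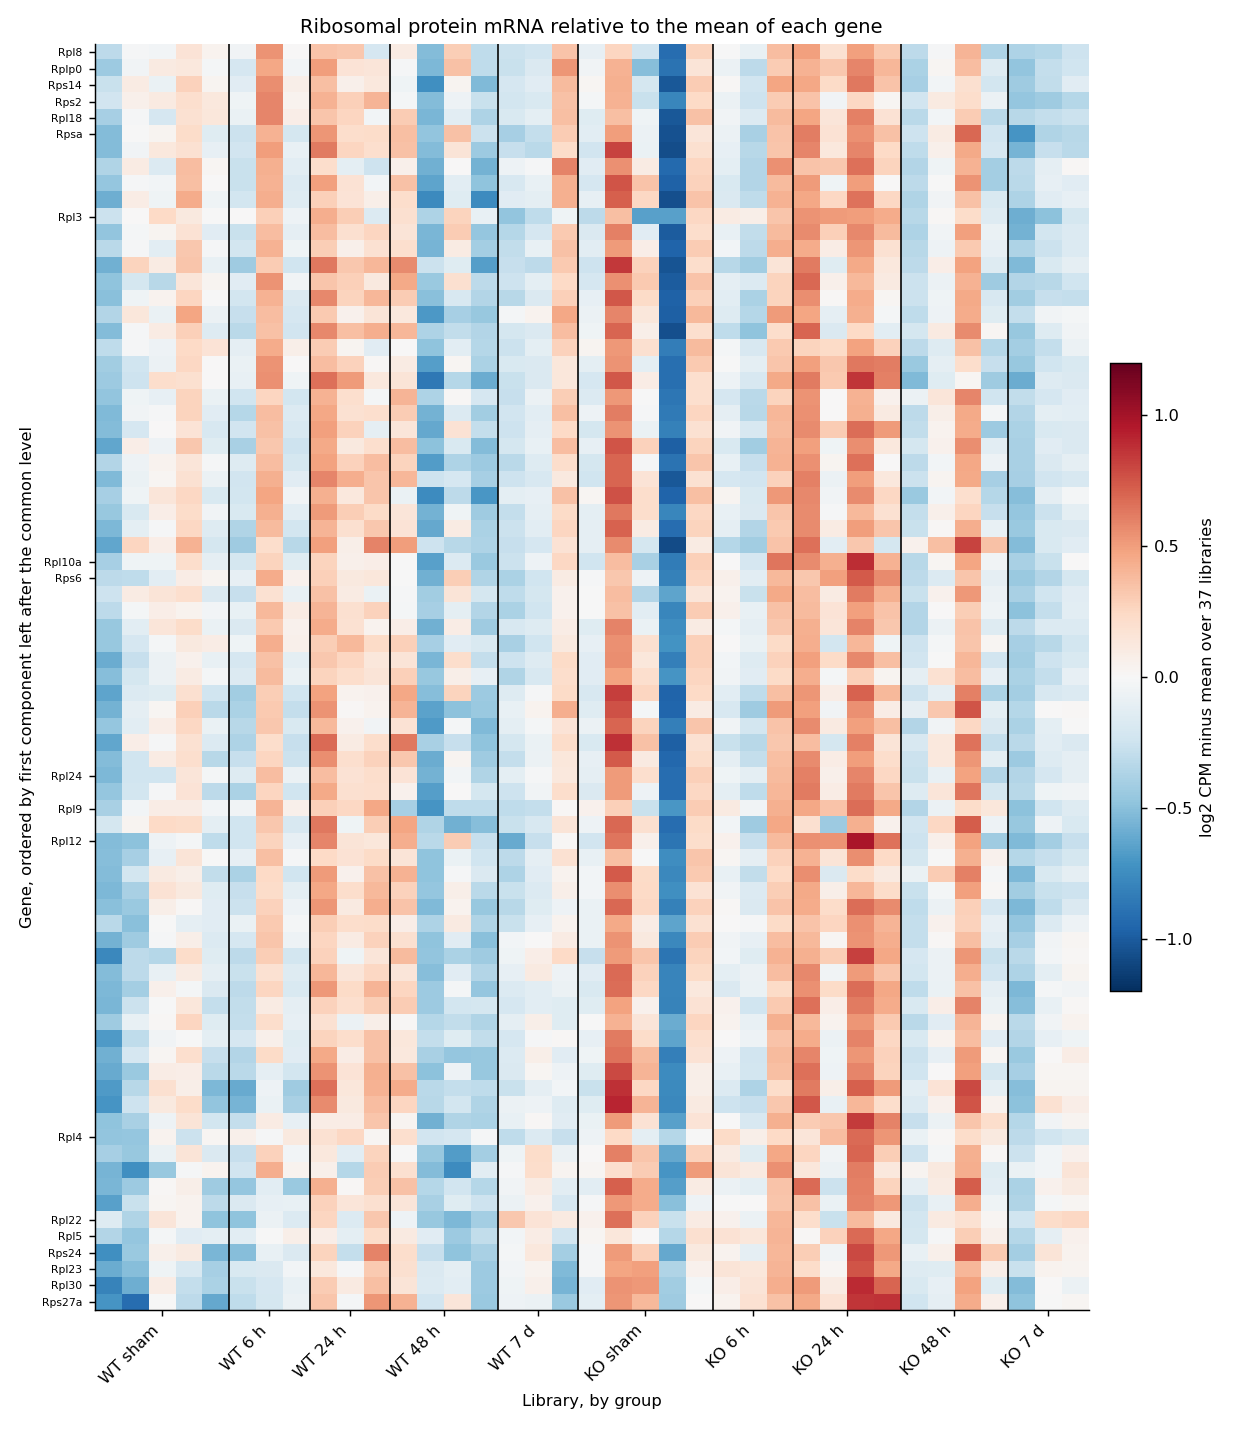
Log2 CPM of the 77 ribosomal protein genes with counts in every library, relative to each gene's mean, with libraries in columns by group and genes in rows ordered by the first component left after the common level (rows at both ends and the genes plotted singly are labelled). Most columns have 1 colour from top to bottom, and KO sham replicate 4, at a common level of -0.82, is the darkest blue.

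Levels per kilobase of annotated transcript let the genes be compared with each other. Averaged over the 37 libraries, Rps2 stood highest at 969 CPM per kb ± 199 (SD), followed by the acidic stalk protein gene Rplp1 at 933 ± 259 and Rpl41 at 915 ± 259, and then Rpl10 at 706 ± 145. These SDs include the movement common to all the genes, and whether the first 3 differ from each other was not tested. The lowest of the genes with counts in every library were Rps20 at 50.4 ± 14.6, Rpl5 at 64.8 ± 11.6 and Rpl35 at 137 ± 34.3 CPM per kb. The annotated transcripts of Rps20 (3706 bases) and Rpl5 (2045 bases) are long, and the values per kb depend on that choice. The remaining genes with counts in every library lay between 145 and 555 CPM per kb.

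The paralogs Rpl10l, Rpl39l and Rpl3l were hardly expressed. Rpl10l, a retrogene paralog of Rpl10 known from the testis, had 1 count, in KO sham replicate 1. Rpl39l, a paralog of Rpl39, had at most 4 counts in any library and was found in 18 of the 37. Rpl3l, the striated muscle paralog of Rpl3, had counts in 21 libraries and is described at the end. Reads from close paralogs and from the many processed pseudogenes of this family can be split between loci, and 316 pseudogene rows named after these genes were pooled with them as an alternative.

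In the KO liver 24 h after hepatectomy, 6 ribosomal protein genes rose against KO sham and none fell. These were Rpl3, Rpl4, Rpl9, Rpl10a and Rpl12 of the large subunit and Rps6 of the small subunit, with log2 changes of 0.49 to 0.68. Tested with edgeR's quasi-likelihood model over all genes, 6 of 78 members (7.69%) passed at an adjusted p under 0.05, while 28.0% of all genes tested did. The share among the members was therefore below the background of this comparison. That order turned with GC and length corrected for, where 32 of 78 members and 5448 of the 15564 genes tested were called. At an unadjusted p under 0.05 there were 17 members, all higher, in a comparison where 40.7% of all genes reached that level. The log2 change was above 0 in 75 of the 78, with a median of 0.27 against -0.01 for all genes, and a median SE of 0.23.

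Rpl3 (chromosome 15, 80077791 to 80091868, minus strand) encodes a core protein near the peptidyl transferase centre. It stood at 252, 401, 199, 199 and 372 CPM in the KO sham livers and at 454, 446, 444 and 426 CPM at 24 h. The 24 h livers were all above the sham livers, with a log2 change of 0.63 (SE 0.20, edgeR adjusted p = 0.0162). Rpl4 (chromosome 9, 64173375 to 64178666, plus strand), which lines the exit tunnel, stood at 451, 553, 433, 370 and 466 CPM in sham and 518, 609, 754 and 676 CPM at 24 h. Its groups overlapped, through KO 24 h replicate 1 at 518 CPM, and the log2 change was 0.49 (SE 0.15, adjusted p = 0.0149).

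Rpl10a (chromosome 17, 28328471 to 28331033, plus strand) forms the L1 stalk, through which tRNA leaves. It stood at 190, 291, 172, 126 and 275 CPM in the KO sham livers and at 333, 303, 415 and 301 CPM at 24 h, without overlap (log2 change 0.68, SE 0.22, edgeR adjusted p = 0.0207). Rpl12 (chromosome 2, 32961559 to 32965345, plus strand), at the base of the acidic stalk, stood at 230, 421, 281, 147 and 312 CPM in sham. At 24 h it was at 394, 392, 531 and 424 CPM, so that KO sham replicate 2 overlapped (log2 change 0.65, SE 0.24, adjusted p = 0.0406). Rpl9 (chromosome 5, 65388364 to 65391444, minus strand) stood at 239, 282, 192, 142 and 285 CPM in sham and 318, 292, 366 and 316 CPM at 24 h. Its groups did not overlap, and its log2 change was 0.50 (SE 0.18, edgeR adjusted p = 0.0353).

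Rps6 (chromosome 4, 86854660 to 86857412, minus strand), the 40S protein phosphorylated by S6 kinase downstream of mTOR, stood at 366, 463, 354, 210 and 444 CPM in the KO sham livers. At 24 h its values were 463.1, 519, 615 and 549 CPM, the lowest just above the highest sham value of 463.0, and its log2 change was 0.55 (SE 0.20, edgeR adjusted p = 0.0422). Rpl3, Rpl9, Rpl10a and Rps6 were thus the 4 members with every 24 h library above every sham library, a separation seen in 4.59% of all genes in this comparison. In the WT 24 h livers the same 6 genes had log2 changes against WT sham of 0.20 (Rpl3), 0.36 (Rpl4), 0.40 (Rpl9), 0.21 (Rpl10a), 0.58 (Rpl12) and 0.30 (Rps6), none of which passed.

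**Figure D3:**
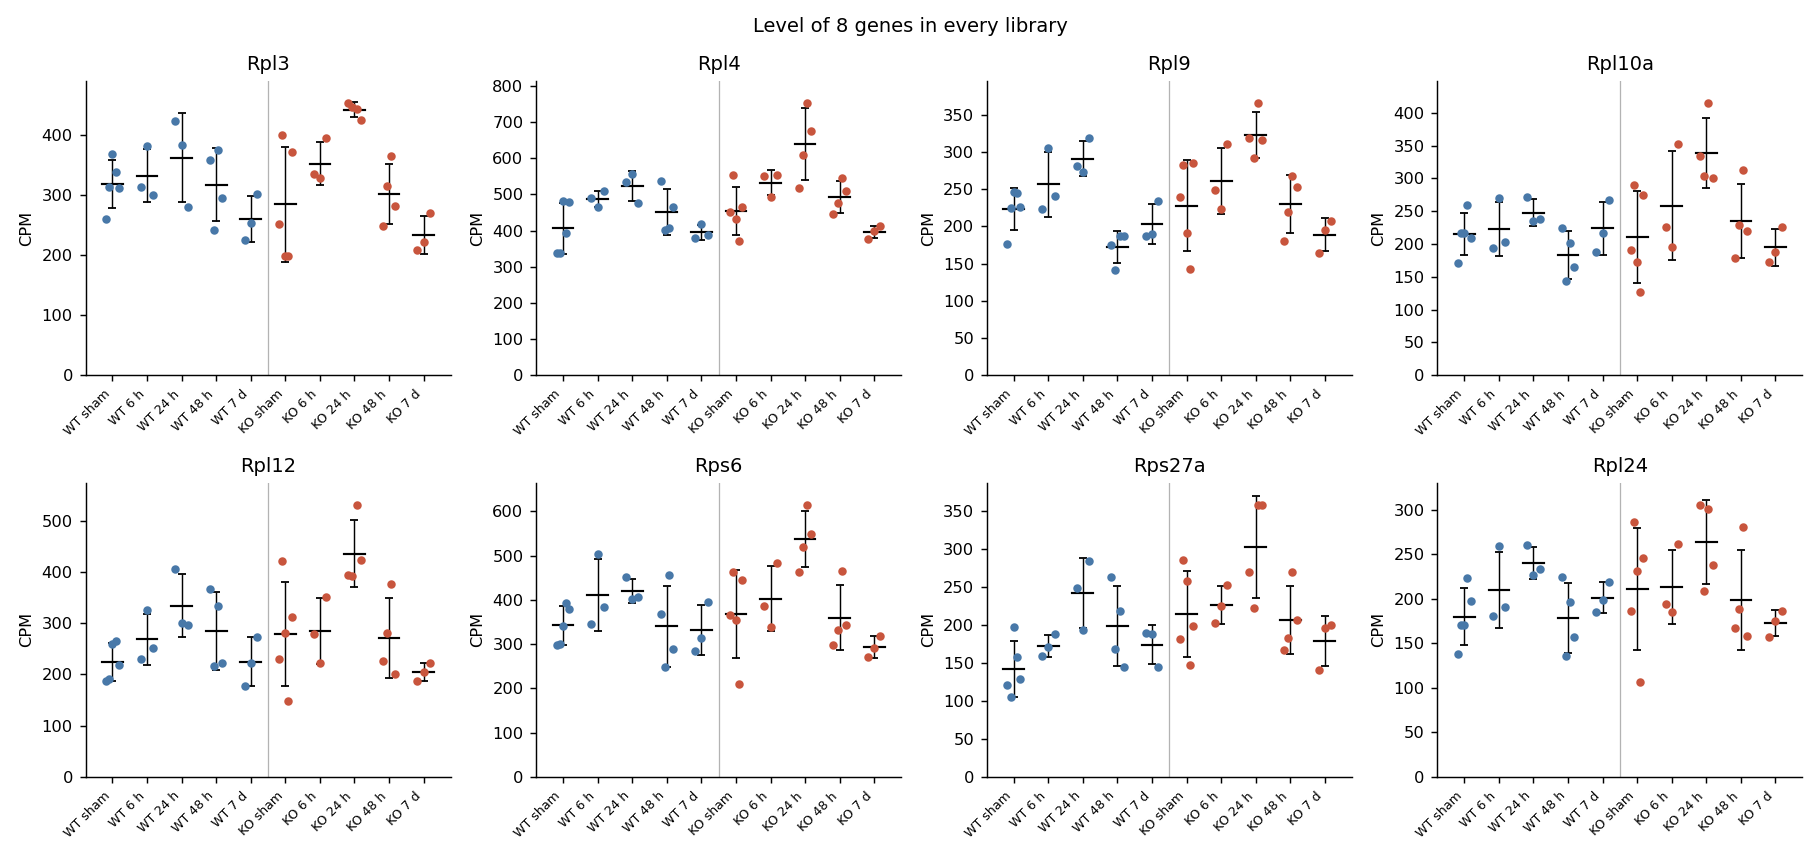
CPM of 8 ribosomal protein genes in every library by group, with the mean ± SD (black; blue points WT, red points KO). The first 6 panels are the genes that passed in the KO at 24 h; Rps27a is the gene that departs most from the common level and Rpl24 the one that follows it most closely. In Rpl3 the 4 KO 24 h libraries lie between 426 and 454 CPM, above all 5 KO sham libraries.

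The calls in the KO at 24 h depended on single libraries and on some choices of the model. All 6 were kept with DESeq2, where 28.1% of all genes were called, and with GC and length corrected for. They were also kept with TMM without the members, with no sex term, with pseudogenes pooled and without the 6 h sham livers. The count was 17 without KO sham replicate 2, 0 without KO sham replicate 3 or 4, 1 without KO 24 h replicate 3 and 2 without KO 24 h replicate 4. The shares of all genes called in these fits are not given here, so the counts cannot be set against them. Fitting only the KO sham and KO 24 h libraries gave 0, where 7.59% of all genes tested were called. Keeping genes of low count also gave 0, where 15.3% were called. The count was 3 with RLE scaling, 2 with total counts scaling, 3 without the 2 WT libraries richest in muscle transcripts, described at the end, and 32 with GC and length corrected for. The corrected fit called 5448 of the 15564 genes tested, a lower share than among the 78 members.

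The other functional groups of ribosomal proteins did not pass in the KO at 24 h. The acidic stalk that recruits elongation factors had log2 changes of 0.54 (Rplp0, SE 0.23), 0.24 (Rplp1, SE 0.28) and 0.35 (Rplp2, SE 0.26). Rpl5 and Rpl11, which carry 5S rRNA and bind the p53 ligase Mdm2 when ribosome assembly is disturbed, had changes of 0.37 (SE 0.16) and 0.18 (SE 0.22). The late-joining 60S protein gene Rpl10 had a change of 0.19 (SE 0.21). Rps19, mutated in Diamond-Blackfan anaemia, had one of 0.44 (SE 0.23), Rpsa 0.47 (SE 0.25) and Rps27a 0.50 (SE 0.21). The X-linked 40S gene Rps4x had a change of 0.44 (SE 0.20). Nearer to 0 were Rpl36a (0.20, SE 0.23), Rps27 (0.17, SE 0.24), Rpl13a (0.12, SE 0.26), Rps27l (0.11, SE 0.22), Rpl39 (0.02, SE 0.23) and Rpl22 (-0.07, SE 0.18). By subunit, the median was 0.27 over 46 large subunit genes and 0.34 over 31 small subunit genes, Rpl3l aside.

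**Figure D4:**
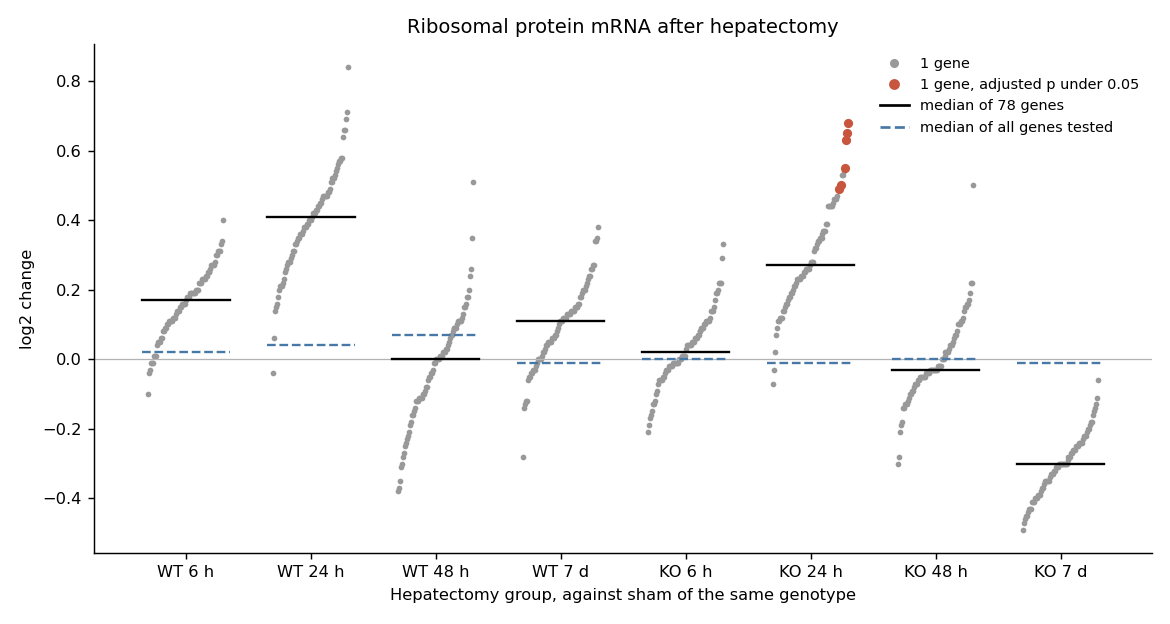
Log2 change of each ribosomal protein gene against sham of the same genotype, 77 points a column with Rpl3l left out, sorted within each column. The solid line is the median of all 78 genes tested, the dashed line that of all genes, and red points have an edgeR adjusted p under 0.05. The medians are 0.41 in the WT and 0.27 in the KO at 24 h and -0.30 in the KO at 7 d.

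Other parts of the translation machinery were set beside them in the same comparison. Of 50 ribosome assembly factors and Myc targets, 34 rose in the KO at 24 h and none fell, with a median of 0.96, where 15.9% of all genes rose. Among them were Noc2l (log2 change 1.36, SE 0.22), a 60S assembly factor, Gar1 (1.93, SE 0.33), an H/ACA snoRNP protein, Polr1e (1.88, SE 0.32), an RNA polymerase I subunit, and Myc itself (2.21, SE 0.57). Of 27 initiation factors 13 rose and none fell (median 0.55), including the cap-complex helicase Eif4a1 (1.28, SE 0.21) and the 60S anti-association factor Eif6 (1.51, SE 0.28). The summed levels of both lists overlapped those of KO sham. The assembly list summed to 840 to 1955 CPM in the KO at 24 h against 632 to 1237 CPM in sham. The initiation factors summed to 2379 to 3897 against 1771 to 2804 CPM. Of 19 elongation factors and other TOP mRNAs 2 rose, Hnrnpa1 (0.81, SE 0.25) and Eef1b2 (0.52, SE 0.18), with a median of 0.22. The ribosomal protein median of 0.27 was nearer to that of the other TOP mRNAs, and the differences between the lists were not tested. In the WT at 24 h none of the assembly factors or initiation factors passed, and their medians were -0.23 and -0.09. The elongation factors and other TOP mRNAs had a median of -0.15 there, with 1 of 19 lower (Eif4b, which encodes an initiation factor, log2 -1.07, SE 0.27, edgeR adjusted p = 0.0449) and none higher. Their summed level was 6044 to 7609 CPM in the WT at 24 h, below all WT sham livers (7974 to 9454 CPM), whereas the ribosomal protein median was 0.41. Of 15 regulators of TOP translation and ribosomal stress, Cdkn1a (4.86, SE 1.04) and Mdm2 (1.32, SE 0.35), both p53 targets, rose in the KO and the rest did not pass.

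Cell type markers moved in the same comparison, in which 12.0% of all genes fell and 15.9% rose. Of 10 Kupffer cell markers 9 fell, with a summed level of 123 to 402 CPM at 24 h against 353 to 543 CPM in sham. Of 8 sinusoidal endothelial markers 7 fell and 1 rose (50.3 to 88.6 against 113 to 193 CPM), and of 10 tested T and NK cell markers 7 fell (1.48 to 3.69 against 4.66 to 12.6 CPM). Hepatocyte markers summed to between 102100 and 173600 CPM, against 110200 to 145400 CPM, with 1 of 10 higher. No marker of these lists was at 0 throughout either group, and their part in the ribosomal protein result was not tested.

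In the WT liver at 24 h the ribosomal protein genes lay together above sham, but no gene passed. The log2 change was above 0 in 77 of 78, with a median of 0.41 and a median SE of 0.25, against a median of 0.04 for all genes. By edgeR 0 of 78 passed, where 0.925% of all genes did. DESeq2 called 1, Rps27a, where it called 3.03% of all genes. At an unadjusted p under 0.05 there were 21 members, all higher, where 15.5% of all genes reached it. In 31 of the 78 genes all 3 livers lay above all 5 sham livers, against 3.08% of all genes. Since the members move together, these counts repeat the common level many times and are not separate observations.

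Cell type markers also differed in level between these WT groups, although of the hepatocyte, Kupffer, sinusoidal endothelial, T and NK, and B and plasma cell lists no gene passed. Of the stellate cell list 1 of 9 was lower, and of the skeletal muscle list 1 of 10 was higher. Hepatocyte markers summed to 48760 to 94150 CPM at 24 h against 92660 to 159700 CPM in WT sham, an overlap at the edge. B and plasma cell markers summed to 2.95 to 5.57 against 7.98 to 26.1 CPM, without overlap. T and NK cell markers summed to 3.05 to 4.56 against 4.44 to 11.02 CPM, again overlapping at the edge. The Kupffer (288 to 578 against 196 to 683 CPM) and sinusoidal endothelial sums (112 to 263 against 134 to 330 CPM) overlapped. No marker of these lists was at 0 throughout either group, and their part in the ribosomal protein levels was not tested.

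Rps27a had the smallest p in the WT at 24 h. It stood at 121, 105, 197, 158 and 129 CPM in the WT sham livers and at 248, 193, 284 CPM at 24 h. Replicate 2 lay just below the highest sham liver, and the log2 change was 0.84 (SE 0.23, edgeR adjusted p = 0.0668). Rpl30, next in order, stood at 50.7, 58.7, 93.9, 72.4 and 67.7 CPM in sham and 109, 95.0 and 113 CPM at 24 h, without overlap (0.69, SE 0.22, adjusted p = 0.111). Rplp0, Rplp1 and Rplp2 had changes of 0.33, 0.35 and 0.47 (SE 0.26, 0.31 and 0.28), and Rpl5 and Rpl11 of 0.27 and 0.44 (SE 0.17 and 0.24). With total counts scaling 27 members passed, where 2.76% of all genes tested did. The median of all genes then moved from 0.04 to 0.27 while that of the members moved from 0.41 to 0.66. Counts of 3 were reached with GC and length corrected for, where 1.84% of all genes passed, and without WT 24 h replicate 2. A count of 1 was reached without the count filter, where 4.05% of all genes passed, and without WT sham replicate 3.

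At the other stages no ribosomal protein gene passed against sham. In the WT at 6 h 0 of 78 passed where 7.86% of all genes did, with a median log2 change of 0.17. Rps27a (0.40, SE 0.24) and Rps7 (0.33, SE 0.20) had the smallest p. In the KO at 6 h 0 passed against 6.62% of all genes, with a median of 0.02, and Rpl3 (0.33, SE 0.22) and Rpl4 (0.22, SE 0.17) had the smallest p. With total counts scaling the 6 h medians became -0.25 and -0.20, as those of all genes went from 0.02 to -0.39 and from 0.00 to -0.27. Relative to all genes the members thus stayed above by 0.14 and 0.07.

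At 48 h the medians were near 0. In the WT 0 passed where 8.29% of all genes did, with a median of 0.00 and 1 member at an unadjusted p under 0.05 (22.5% of all genes). That gene was Rps27a, at 263, 168, 218 and 145 CPM (0.51, SE 0.21, edgeR adjusted p = 0.132), and Rpl9 came next at -0.37 (SE 0.18). In the KO 0 passed where 3.0% of all genes did, with a median of -0.03. Rpl41, whose product is a very short peptide, had 0.50 (SE 0.27) and Rpl27a -0.30 (SE 0.25).

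At 7 d neither all genes nor the members gave a call in either genotype (0.0% of all genes and 0 of 78 in both). The median of the members was 0.11 in the WT, with Rpl22 at 0.38 (SE 0.19), and -0.30 in the KO, with Rps25 at -0.49 (SE 0.25) and Rpl7a at -0.43 (SE 0.23). All 78 genes had a log2 change below 0 in the KO at 7 d, from -0.06 to -0.49 with Rpl3l aside, and none reached an unadjusted p of 0.05. Rps25 stood at 151, 178 and 195 CPM in the KO 7 d livers and at 208, 355, 262, 126 and 267 CPM in KO sham. All 3 KO 7 d livers lay within the sham range, above KO sham replicate 4. In the WT at 6 h, the KO at 6 h and 48 h and both genotypes at 7 d, no member reached an unadjusted p under 0.05, and DESeq2 gave no call at any stage against sham other than 24 h.

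The genotypes were then compared stage by stage. In sham livers 0 of 78 members passed where 0.276% of all genes did, with a median KO to WT log2 difference of 0.18. At an unadjusted p under 0.05 there were 5 members, all higher in the KO, in a comparison where 12.8% of all genes reached it. Rps27a stood at 181, 286, 257, 147 and 198 CPM in KO sham against 121, 105, 197, 158 and 129 CPM in WT sham (0.62, SE 0.20, edgeR adjusted p = 0.165), with the ranges overlapping. Rpl23 (0.52, SE 0.17, adjusted p = 0.174) and Rpl30 (0.53, SE 0.19, adjusted p = 0.206) came next. All 3 had adjusted p above 0.05. These genes also headed the component whose loadings followed GC content, and a part of GC content in these differences was not tested. With GC and length corrected for, 10 members had an unadjusted p under 0.05. None passed in that fit, where 0.218% of all genes did.

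At 6 h 0 passed where 0.116% of all genes did (median 0.06), with Rpl22 at 0.37 (SE 0.22) and Rpl30 at 0.42 (SE 0.24). In 6 members, Rpl5, Rpl21, Rpl23, Rpl30, Rpl36a and Rps27a, all 3 KO livers lay above all 3 WT livers, against 9.19% of all genes. At 24 h 18.6% of all genes passed and 1 member did, Rpl3l, which was lower in the KO and is described at the end. The other 77 members had differences between -0.29 and 0.45, with a median over all 78 of 0.12, and none of them reached an unadjusted p under 0.05, as 34.9% of all genes did. Rpl5 had 0.32 (SE 0.18, edgeR adjusted p = 0.202) and Rpl10a 0.45 (SE 0.25, adjusted p = 0.205). In 5 members, Rpl3, Rpl10a and Rps6 among them, all 4 KO livers lay above all 3 WT livers, against 6.14% of all genes. With total counts scaling the median at 24 h was -0.27 where that of all genes was -0.39, so that the sign turned but the position above all genes did not. That scaling called 3 members, all lower, where 21.2% of all genes tested were called. The fit with GC and length corrected for called 5, 3 higher and 2 lower, where 25.5% of all genes were called.

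At 48 h 0 passed where 0.341% of all genes did, with a median of 0.20. At an unadjusted p under 0.05 there were 3 members where 11.3% of all genes were: Rpl9 (0.43, SE 0.19), Rpl22 (0.41, SE 0.19) and Rps24 (0.52, SE 0.25). At 7 d 0 passed where 0.045% of all genes did, with a median of -0.20, and Rps2 and Rplp0 both had -0.42 (SE 0.25 and 0.29). In Rpl18, Rpl38, Rps2 and Rps13 all 3 KO livers lay below all 3 WT livers, against 6.55% of all genes. Averaged over the 5 stages 0 passed where 2.72% of all genes did, with a median of 0.06. There were 8 members at an unadjusted p under 0.05, where 20.3% of all genes were, led by Rpl23 (0.27, SE 0.09, edgeR adjusted p = 0.0998), Rpl30 (0.27, SE 0.10, adjusted p = 0.132) and Rps27a (0.27, SE 0.11, adjusted p = 0.15). Rpl23 passed when KO 24 h replicate 1 was left out. DESeq2 called no member between the genotypes at any stage.

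Whether the response to hepatectomy differed between the genotypes was tested as an interaction. It called 0 members at each stage, where 0.0% of all genes passed at 6 h, 8.47% at 24 h, 0.0% at 48 h and 0.0% at 7 d, and no member reached an unadjusted p under 0.05 in any of the 4 tests. DESeq2 called none either. The medians were -0.15, -0.14, 0.01 and -0.41, with median SEs of 0.35, 0.34, 0.32 and 0.36, so the interaction of a single gene was known less precisely than its change within a genotype. At 24 h Rpl22 had -0.41 (SE 0.26) and at 48 h Rps27a -0.52 (SE 0.30). At 7 d Rpl30 had -0.63 (SE 0.31) and Rps27a -0.65 (SE 0.33), both with an edgeR adjusted p = 1.0. A difference between the genotypes in the 24 h response of Rpl3, Rpl4, Rpl9, Rpl10a, Rpl12 or Rps6 was therefore not shown.

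Several ribosomal protein genes fall outside the symbol rule. Rps3a1, which encodes a 40S protein, rose in the KO at 24 h by 0.51 (SE 0.18, edgeR adjusted p = 0.0303), at 340, 347, 545 and 454 CPM against 285, 358, 299, 192 and 347 CPM in sham. Its groups overlapped through KO sham replicates 2 and 5. Rpl22l1, the paralog of Rpl22, rose in the WT at 48 h by 1.01 (SE 0.30, adjusted p = 0.0354). It stood at 36.5, 25.9, 26.2 and 22.6 CPM against 10.6, 11.6, 25.8, 10.4 and 12.2 CPM in WT sham, with WT sham replicate 3 inside the 48 h range. At 24 h in the WT its change was 1.15 (SE 0.33, adjusted p = 0.0854), while Rpl22 changed by 0.34 (SE 0.19). Fau, which encodes a 40S protein fused to a ubiquitin-like protein, had a change of 0.39 (SE 0.24) in the KO at 24 h, and the 40S scaffold gene Rack1 one of 0.33 (SE 0.21). Rpl36al and Rpl7l1 had 0.22 (SE 0.21) and 0.12 (SE 0.21), and none of these 4 passed.

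Rpl3l (chromosome 17, 24727820 to 24736143, plus strand) was lower in the KO than in the WT at 24 h through a single WT library. It had 1, 2 and 275 counts in the WT 24 h livers and 0, 2, 3 and 0 in the KO 24 h livers. The fitted log2 difference was -5.95 (SE 1.83, edgeR adjusted p = 0.0239), and without WT 24 h replicate 3 it was 0.42. The call was also lost without KO 24 h replicate 2 or replicate 4 and with DESeq2, with the sign unchanged. In a fit of those 2 groups by themselves Rpl3l did not pass the filter on low counts. In the WT at 48 h replicate 3 held 115 counts and the others 0, 0 and 1, and no other library had more than 24. Skeletal muscle transcripts moved with it. The summed level of 10 muscle genes (Ckm, Acta1, Myh4, Tnnt3, Mb, Ttn, Actn2, Myl1, Atp2a1 and Tnnc2) was 1719 CPM in WT 24 h replicate 3, 675 CPM in WT 48 h replicate 3 and 117 CPM in WT sham replicate 2, which had 24 Rpl3l counts. In the 16 libraries without an Rpl3l count it was at most 2.24 CPM. Rpl3 itself stood at 280 CPM in WT 24 h replicate 3 and 424 and 384 CPM in replicates 1 and 2. WT 24 h replicate 3 also had 8.93% mitochondrially encoded counts and the second highest TMM factor, 1.31. Smaller muscle sums were present in other libraries, at 49.6 CPM in KO 48 h replicate 4, 41.0 CPM in WT sham replicate 3 and 31.3 CPM in KO 24 h replicate 3. With the 2 libraries of the highest sums left out (WT 24 h replicate 3 and WT 48 h replicate 3), the WT 24 h median of the ribosomal protein genes was 0.44 against 0.41 with them, and the KO to WT median at 24 h was 0.02 against 0.12.

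**Figure D5:**
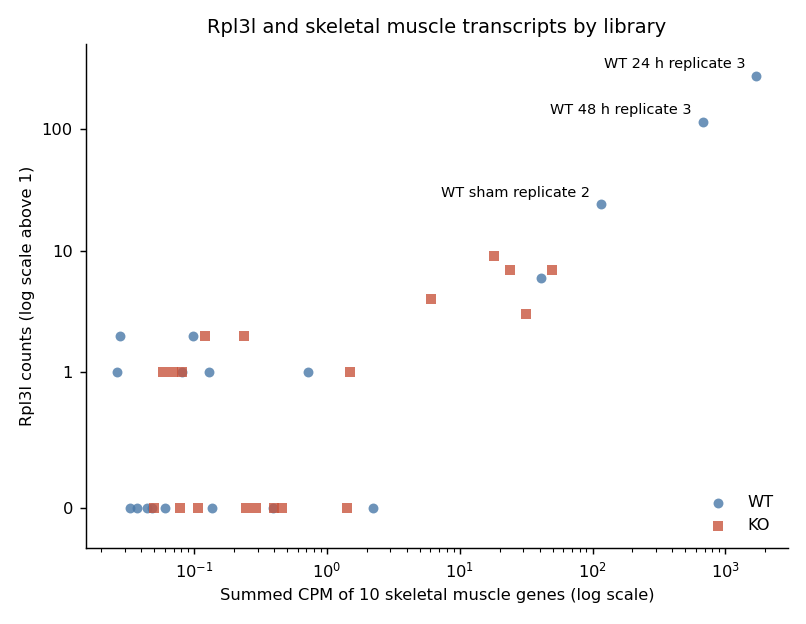
Rpl3l counts against the summed CPM of 10 skeletal muscle genes, both on log scales (counts linear between 0 and 1), 1 point a library. Libraries with more than 3 Rpl3l counts all have a muscle sum of at least 6.11 CPM, and WT 24 h replicate 3 lies highest at 275 counts and 1719 CPM.

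The genotype labels were checked with Nox4 itself. In males it was at 3.95 to 23.5 CPM in 11 WT libraries and 0.325 to 4.98 CPM in 12 KO libraries, and in females at 0.778 to 3.36 CPM in 7 WT libraries and 0 to 0.245 CPM in 7 KO libraries. The male ranges overlapped.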

How the data were processed

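The deposited table holds 1 whole number per gene and library, treated here as rounded expected counts. The authors' processing notes list STAR 2.5.3a, RSEM 1.3.0 and GRCm38 with no role for each; annotation, strand setting and filters are not given in the sources used here. Libraries were made with a KAPA stranded mRNA kit, per the labels' protocols. Gene positions and lengths came from GENCODE M21 (all 80 members matched; length is that of the shortest principal transcript), and start-site sequences from RefSeq (GRCm38.p6).

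All 37 libraries were fitted at once in R 4.3.3 with edgeR 4.0.16: filterByExpr (15564 genes), TMM, a robust quasi-likelihood model with 10 groups and sex, Benjamini-Hochberg adjustment over all genes tested and a threshold of 0.05 (common biological coefficient of variation 0.39). The SE of a log2 change was derived from the F statistic, as its size over the root of F. The procedure was tested on simulated data. Alternatives were DESeq2 1.42.0, other scalings (RLE, total counts, TMM without the members), no count filter, no sex term, the compared groups alone, no 6 h sham livers, GC and length correction, pooled pseudogenes and leaving out each library. Leaving out the 2 libraries with the highest sums of muscle transcripts was chosen after the data were seen, as were the muscle genes.

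The members and gene lists were chosen with earlier results of these data known. Named genes were, for each comparison, up to 3 passing members per direction with the smallest p (otherwise the 2 with the smallest unadjusted p), a panel by function, the 3 members closest to and farthest from the common level, related genes outside the symbol rule and the 5 other genes most like the members. Some genes are not reported here by name. All 6 members that passed in the KO at 24 h are described, and other members named from the overlap of groups, the components or the levels per kb were chosen after their values were seen. Counts agreed in no pair of replicates within sampling noise (lowest chi-square per degree of freedom 32.07). Figures were drawn with matplotlib 3.10.9 in Python 3.11.15.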

Additional observations from a re-analysis of the deposited data

Results flagged for a closer look

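A library far from the others of its group was looked for in 36 measures, in 180 groups of 4 or 5 libraries, and found in 8. Chance alone gives about 1 in 20 such groups if they are independent. The measures move together and several of the 8 are from 1 library, so that rate is only a rough guide. WT 48 h replicate 1 lay above the other WT 48 h livers for Rplp1 (593 CPM), Rpl13a (690 CPM), Rpl36a (109 CPM) and Rpl41 (635 CPM), and its TMM factor of 0.864 was the lowest of its group. KO 24 h replicate 3 lay above its group for Rpl10 (771 CPM) and KO 48 h replicate 3 for Rpl30 (123 CPM). For Rpl3l the libraries were WT 48 h replicate 3 (2.73 CPM) and KO 48 h replicate 4 (0.191 CPM), which had muscle gene sums of 675 and 49.6 CPM. What set these libraries apart was not tested beyond those values.

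At 7 d every KO liver lay below the KO sham mean and every WT liver above the WT sham mean for 15 of the 78 members tested and 2.96% of all genes. Only this direction was counted, and since the members move together, the 15 are not separate observations. Of the 36 measures above, 4 were among the 15. Their mean differences from sham were -45.7 CPM in the KO and 80.1 CPM in the WT for Rplp1, -14.1 and 11.7 CPM for Rpl36a, -34.8 and 31.8 CPM for Rps27a, and -38.6 and 21.4 CPM for Rpl24. The interaction of the model gave log2 values of -0.44 (SE 0.44), -0.53 (SE 0.36), -0.65 (SE 0.33) and -0.48 (SE 0.35), with an edgeR adjusted p = 1.0 for each, so the difference between genotypes was not shown.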

How the results depend on the processing

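With total counts scaling the number of members called was 27 in the WT at 24 h, 1 in the WT at 48 h, 2 in the KO at 24 h, 1 in the KO at 48 h, 3 in KO against WT at 24 h and 2 in the 24 h interaction. The shares of all genes called were 2.76%, 9.46%, 25.5%, 4.52%, 21.2% and 7.45% in the same order. Without the count filter the number of members called was 1 in the WT at 24 h, 1 in the WT at 48 h, 0 in the KO at 24 h, 1 in KO against WT at 48 h and 1 in the 24 h interaction. The shares of all genes there were 4.05%, 7.08%, 15.3%, 2.12% and 8.05%. With GC and length corrected for, 3 members were called in the WT at 24 h, where 1.84% of all genes were. There were 2 in the WT at 48 h (10.6% of all genes) and 1 in the KO at 48 h (4.27% of all genes). In KO against WT at 24 h there were 5 (25.5% of all genes), and in the 24 h interaction 1 (9.78% of all genes). In the KO at 24 h there were 32, where 5448 of the 15564 genes tested were called. RLE scaling gave 3 in the KO at 24 h, where 27.4% of all genes were called. The compared groups alone gave 0 in the KO at 24 h, where 7.59% of all genes were called. They also gave 0 in KO against WT at 24 h, where 0.0% of all genes were called, so that 0 is not particular to the members. DESeq2 gave 1 in the WT at 24 h (3.03% of all genes), 6 in the KO at 24 h (28.1% of all genes) and 0 in KO against WT at 24 h (21.5% of all genes). Without the 2 libraries richest in muscle transcripts the counts were 3 in the KO at 24 h (31.0% of all genes) and 0 in KO against WT at 24 h (14.7% of all genes). Leaving out 1 library at a time gave 0 to 3 in the WT at 24 h, 0 to 17 in the KO at 24 h, 0 to 1 in KO against WT at 24 h and 0 to 1 in the average, and 0 throughout in the other 14 comparisons. For fits with 1 library left out, the shares of all genes called are not given here. Signs turned with total counts scaling for Rps27a (-0.02) and Rps7 (-0.09) in the WT at 6 h, Rpl4 (-0.03) in the KO at 6 h and Rpl27a (0.00) in the KO at 48 h, and without WT 24 h replicate 3 for Rpl3l, whose value with 1 library left out ran from -7.22 to 0.42 in KO against WT at 24 h and from -6.66 to 0.76 in the 24 h interaction. Mean shares without the 20 most abundant genes were 2.70%, 2.30%, 3.82%, 3.06% and 2.80% in the WT from sham to 7 d and 2.90%, 2.43%, 3.50%, 3.40% and 2.71% in the KO, and the WT 7 d share without mitochondrially encoded genes was 2.13%. The cause of these shifts was not tested. No paired analysis was possible because the labels give no replicate numbers.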

Other observations

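Genes of the mitochondrial ribosome, which translates the mRNAs of the mitochondrial genome, were measured in the same libraries. Of 77 mitochondrial ribosomal protein genes, 8 rose and 4 fell in the KO at 24 h against sham, with a median log2 change of 0.07, where 15.9% of all genes rose and 12.0% fell, and none passed in the WT at 24 h (median 0.14). Of 13 mitochondrially encoded mRNAs none passed in either comparison, with medians of 0.14 and 0.00. Of 20 cytosolic aminoacyl-tRNA synthetases, which charge tRNAs, 6 rose in the KO at 24 h and none fell (median 0.24), and none passed in the WT (median -0.23).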
